A study of Rattus norvegicus with 6 samples.

Results

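The glutathione transferases described here are 10 rat genes of 6 classes: Gsta2, Gsta3 and Gsta4 (alpha), Gstm1, Gstm2 and Gstm3 (mu), Gstp1 (pi), Gstt1 (theta), Gstk1 (kappa) and Mgst1 (microsomal). They were chosen by name, as every non-control probe whose accession maps to one of these genes in RefSeq, which gave 17 of the 61537 probes. They come from 1-colour Agilent arrays of the renal cortex of male rats (strain Sprague-Dawley), bought at 5 weeks of age. The groups were 3 rats given monuron, a phenylurea herbicide, at 200 mg/kg/day for 4 weeks and 3 rats given corn oil, the vehicle, for 4 weeks, with 1 array per rat. The study had a single dose and a single time, and the groups lay on separate slides scanned on separate days, so the treatment and these batches cannot be told apart in any value below.

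Glutathione transferases join the thiol of the tripeptide glutathione to electrophilic compounds, which makes them water soluble and ready for export. The soluble enzymes of the alpha, mu, pi and theta classes work as dimers in the cytosol, kappa enzymes lie in mitochondria and peroxisomes, and microsomal enzymes are membrane proteins of a separate family. The proximal tubule of the kidney is rich in alpha class enzymes, and it also breaks down glutathione conjugates on their way to mercapturic acids in urine. Several of these genes are known targets of the transcription factor NRF2, which binds antioxidant response elements. Rat Gstp1 is a long-used marker of altered foci in the liver.

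A level here is the processed spot signal divided by the 75th percentile of all non-control probes on the same array, and it compares arrays for 1 probe but not probes with each other. That percentile lay between 868 and 922 units on the monuron arrays and between 825 and 887 units on the corn oil arrays. The scanner software marked 68.7% to 70.4% of probes as well above background on the monuron arrays and 60.9% to 70.1% on the corn oil arrays. Differences are log2 of monuron over corn oil with standard errors, from limma fitted to the 41125 probes with that mark on each of the 3 arrays in the monuron group, the corn oil group or both, and a probe is called where the Benjamini-Hochberg adjusted p over these probes is below 0.05. All 13 kidney cortex markers were measured, and their mean log2 level was 5.61 to 5.65 on the monuron arrays and 5.72 to 5.81 on the corn oil arrays. In tissue RNA, more cells that hold a transcript and more transcript per cell cannot be told apart.

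Of the 17 member probes 5 were called higher with monuron and 0 lower, and 8 were higher with 0 lower at an unadjusted p below 0.05. Over all probes tested 1.22% were called, 0.832% higher and 0.391% lower. Of these 41125 probes, 7206 had an unadjusted p below 0.05 in either direction, the share to set beside such counts. The called probes were all 3 of Gstp1, the probe of Gstm2 and 1 of the 2 probes of Gstm3. The Gstp1 and Gstm2 probes were well above background on every array. The called Gstm3 probe entered the test through the monuron arrays alone, so its call and its lack of overlap add no support to these counts. The groups did not overlap for 8 of the 17, all higher with monuron, where 14.9% of all probes did the same. The median log2 difference was 0.31 over the 17 probes and 0.019 over all probes tested, and it was above 0 for 17 of the 17 against 54.2% of all probes. Scaling on spike-in probes in place of the percentile moves every probe by -0.58 and puts 9 of the 17, of the alpha, theta, kappa and microsomal classes, below 0. All 17 passed the filter, but the 2 Gstm3 probes did so through the monuron arrays alone, so the filter itself favoured a difference in them. The plot of levels by array shows the pi and mu rows with the groups apart or nearly so, and most other rows with the groups intermixed.

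**Figure D1:**
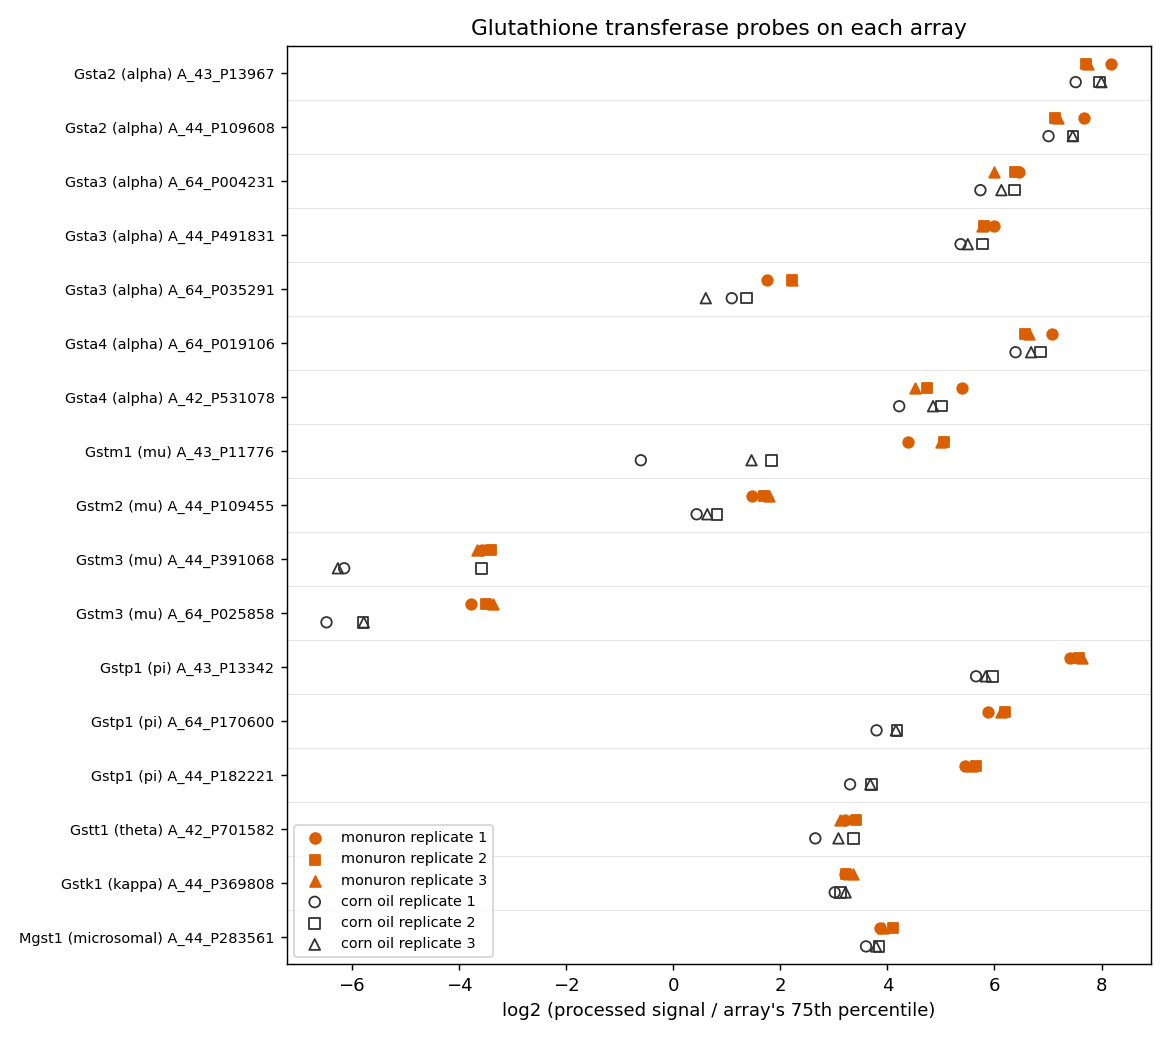
Each row is 1 probe of a member gene, and the x axis is its level on a log2 scale. Filled orange symbols are the 3 monuron arrays and open symbols the 3 corn oil arrays, with 1 shape per replicate number. The 3 Gstp1 rows and the Gstm1 row show monuron and corn oil arrays apart, while the Gsta2 and Gsta4 rows show them intermixed.

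The RefSeq promoter windows (build GRCr8, 250 bases before to 50 after the annotated gene start) of the genes the differences turn on are shown, since the pi and mu genes held the called member probes and, in Gstm1, the largest fold. Gsta2, an alpha class gene with log2 differences of 0.058 and 0.016, is shown beside them. Capitals mark letters that match TGACNNNGC (the core of the antioxidant response element), TGANTCA (an AP-1 site) or GCGTG (the core of the xenobiotic response element), each searched on both strands. The table held windows for 9 of the 10 members.
Gstp1 promoter, chr1:210769656-210769955, minus strand: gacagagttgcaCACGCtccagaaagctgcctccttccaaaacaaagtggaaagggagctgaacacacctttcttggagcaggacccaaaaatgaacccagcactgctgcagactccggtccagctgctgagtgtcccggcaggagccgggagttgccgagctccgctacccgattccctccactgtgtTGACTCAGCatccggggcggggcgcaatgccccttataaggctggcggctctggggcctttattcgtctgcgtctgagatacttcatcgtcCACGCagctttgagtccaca
Gstm1 promoter, chr2:198343334-198343633, minus strand: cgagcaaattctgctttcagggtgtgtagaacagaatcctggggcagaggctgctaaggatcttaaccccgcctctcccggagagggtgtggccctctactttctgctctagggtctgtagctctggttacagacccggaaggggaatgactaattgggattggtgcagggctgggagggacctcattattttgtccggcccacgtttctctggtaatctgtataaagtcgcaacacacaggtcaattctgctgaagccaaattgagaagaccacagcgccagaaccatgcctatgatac
Gstm2 promoter, chr2:198316868-198317167, minus strand: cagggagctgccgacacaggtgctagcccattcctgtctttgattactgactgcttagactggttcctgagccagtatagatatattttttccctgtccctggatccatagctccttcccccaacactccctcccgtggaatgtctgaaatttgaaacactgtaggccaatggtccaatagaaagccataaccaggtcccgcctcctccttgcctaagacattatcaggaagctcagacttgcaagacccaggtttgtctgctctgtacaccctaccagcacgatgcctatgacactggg
Gstm3 promoter, chr2:198300618-198300917, minus strand: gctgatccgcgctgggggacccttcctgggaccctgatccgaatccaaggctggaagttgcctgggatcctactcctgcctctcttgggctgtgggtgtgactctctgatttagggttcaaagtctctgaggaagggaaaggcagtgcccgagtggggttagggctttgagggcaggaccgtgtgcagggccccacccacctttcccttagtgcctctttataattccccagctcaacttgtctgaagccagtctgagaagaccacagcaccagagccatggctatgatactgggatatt
Gsta2 promoter, chr8:88077043-88077342, minus strand: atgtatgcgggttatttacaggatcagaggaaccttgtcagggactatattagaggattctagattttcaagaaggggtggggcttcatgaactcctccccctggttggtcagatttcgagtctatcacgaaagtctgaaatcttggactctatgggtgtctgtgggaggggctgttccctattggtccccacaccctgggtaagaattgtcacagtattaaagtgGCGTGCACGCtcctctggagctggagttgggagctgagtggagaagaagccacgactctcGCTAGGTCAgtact

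In the Gstp1 window TGACTCAGC begins 61 bases before the gene start, and the antioxidant core and the AP-1 letters overlap there. The Gstm1, Gstm2 and Gstm3 windows hold none of the 3 motifs, which says only that these letters are not in these bases. Gsta2 holds GCGTG on both strands near its start and an antioxidant core on the opposite strand, 37 bases after the start. Of all 33469 windows of this length, 12.1% hold TGACNNNGC, 7.33% hold TGANTCA and 29.7% hold GCGTG. The Gstp1 and Gsta2 windows and a Gsta3 window hold an antioxidant core, which another Gsta3 window lacks. Of these genes only Gstp1 has a called probe. The Mgst1 window holds an AP-1 site 140 bases before the start, and Mgst1 was not called.

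Gstp1, the pi class transferase, was higher with monuron on each of its 3 probes. Its brightest probe (A_43_P13342) stood at 170.4, 191 and 199 on monuron replicates 1 to 3, and at 50.4, 62.3 and 57.2 on corn oil replicates 1 to 3. Every monuron array lay far above every corn oil array, and the spread within a group was small. The means were 187 ± 14.7 with monuron and 56.6 ± 5.94 with corn oil (SD, n = 3 each), a 3.31-fold difference (95% interval 2.75 to 3.97, log2 1.72 ± 0.11, limma adjusted p = 0.00812). Probe A_64_P170600 read 59.1, 73.5 and 69.3 on the monuron arrays and 13.9, 18.1 and 17.9 on the corn oil arrays. Probe A_44_P182221 read 43.7, 50.2 and 47.8 with monuron and 9.88, 13.0 and 12.8 with corn oil. These probes gave 4.06-fold and 3.99-fold differences (intervals 3.20 to 5.15 and 3.20 to 4.98), so the 3 probes of Gstp1 overlap in their intervals and all were called at the same adjusted p. Without monuron replicate 3 the log2 difference of the brightest probe was 1.68 and its adjusted p 0.0504 (range over the alternatives 0.00124 to 0.128), while it stayed called without any other single array.

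The mu class gene Gstm1, which encodes a main cytosolic transferase of rat liver, was the member with the largest fold difference, but its corn oil arrays scattered. Its probe (A_43_P11776) stood at 20.8, 33.3 and 32.0 on monuron replicates 1 to 3 and at 0.659, 3.57 and 2.76 on corn oil replicates 1 to 3. The groups did not overlap, and corn oil replicate 1 lay 5.41-fold below the highest corn oil array. The means were 28.7 ± 6.87 with monuron and 2.33 ± 1.5 with corn oil (SD, n = 3 each). Folds here are ratios of geometric means, from the fit on log2 levels, and for Gstm1 this gave 15.1-fold with an interval of 4.96 to 45.8, since the low corn oil replicate 1 weighs more on that scale than in the plain means. It was not called (log2 3.91 ± 0.65, limma adjusted p = 0.0643, range over the alternatives 0.00493 to 0.242). Without corn oil replicate 1 it was called, with a smaller log2 difference of 3.16 and adjusted p = 0.0341.

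Gstm2, another mu class enzyme, differed less but more evenly. Its level was 2.77, 3.23 and 3.46 on the monuron arrays and 1.36, 1.76 and 1.56 on the corn oil arrays, without overlap. The means, 3.15 ± 0.353 with monuron and 1.56 ± 0.202 with corn oil, differed 2.03-fold (interval 1.62 to 2.54, log2 1.02 ± 0.13, limma adjusted p = 0.0351). Leaving out any single array ended this call, with log2 differences of 0.92 to 1.11. The adjusted p ranged from 0.0103 to 0.2 over the alternatives.

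Gstm3, the other mu class member, was near the limit of detection. Probe A_64_P025858 read 0.0734, 0.0887 and 0.0969 on the monuron arrays and 0.0113, 0.0181 and 0.0183 on the corn oil arrays, and in every corn oil rat it stayed below the background limit. Set against the lowest signal well above background, it was at least 3.65-fold higher with monuron. On its measured values it was called (limma adjusted p = 0.0137), but with low values set to a floor it was not (log2 1.87, adjusted p = 0.0651, range over the alternatives 0.00188 to 0.138). Leaving out monuron replicate 1, 2 or 3 also ended the call, with adjusted p = 0.0588, 0.0747 and 0.0717 and log2 differences of 2.58, 2.44 and 2.38. Probe A_44_P391068 of the same transcript read 0.0843, 0.0948 and 0.0792 with monuron and 0.0142, 0.0835 and 0.0131 with corn oil. Corn oil replicate 2 lay at the level of the monuron arrays and was the only corn oil array well above background. This second probe was not called (log2 1.79 ± 0.73, adjusted p = 0.285), and its difference has no exact size, since 2 of the 3 corn oil arrays were not above background. Leaving out corn oil replicate 2 gives an adjusted p of 0.0308 (range over the alternatives 0.0308 to 0.579), but that leaves only corn oil arrays below background for a probe that passed through the monuron arrays.

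**Figure D2:**
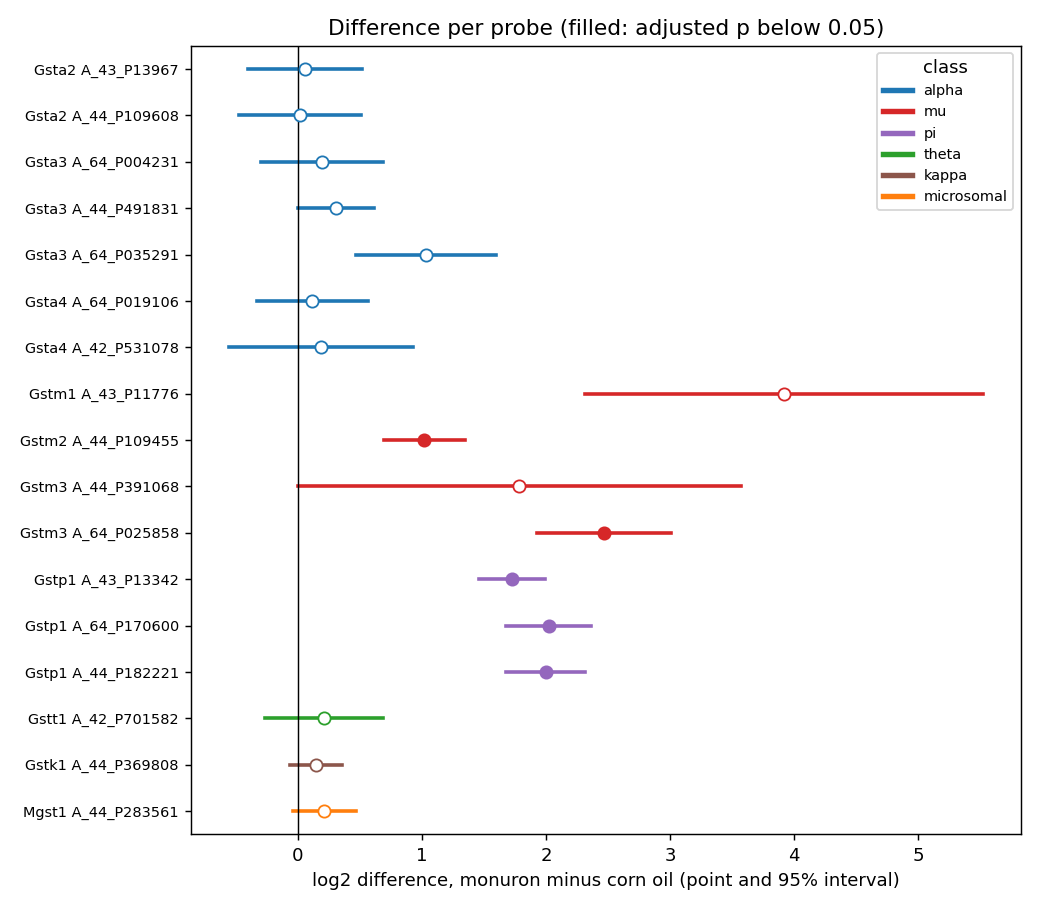
Each point is the log2 difference of 1 member probe, monuron minus corn oil, with its 95% interval, coloured by class, and filled points have an adjusted p below 0.05. Pi and mu probes lie between 1.02 and 3.91, and the theta, kappa and microsomal probes between 0.15 and 0.21. Alpha probes lie between 0.016 and 1.03, the highest being a Gsta3 probe that was not called.

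The mu class genes lie close together on chromosome 2, and RefSeq (GRCr8) gives a stretch of 11 genes from Gstm5 to Gstm4. Some of the 11 are long noncoding RNA genes between the mu class genes, and there is no value for Gstm3l1. In that order the brightest passing probes had log2 differences of 1.01 ± 0.20 for Gstm5, 0.74 ± 0.07 for Gstm6l, 1.42 ± 0.28 for Gstm7, 1.02 ± 0.13 for Gstm2, 3.91 ± 0.65 for Gstm1 and 0.55 ± 0.24 for Gstm4. The groups did not overlap for these probes. Gstm3, which lies between Gstm7 and Gstm2, has only a bound (at least 3.65-fold on 1 probe) because its corn oil signal was at background. Gstm6l was added as a further gene after its place in the stretch was seen. Of its 2 probes 1 passed the filter, and that probe was called (adjusted p = 0.0152). Gstm5 (adjusted p = 0.09), Gstm7 (0.0915) and both probes of Gstm4 (0.309 and 0.349) were not called. Gstm6 was not well above background on any array. Gstm7 stood at 1.94, 1.41 and 2.20 on the monuron arrays and 0.465, 0.807 and 0.835 on the corn oil arrays. Gstm4 had its lowest corn oil level on replicate 1 too, at 0.787 against 1.32 and 1.47 on the other corn oil arrays. Mu class transcripts resemble each other, and how far a probe reads its neighbours was not tested.

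**Figure D3:**
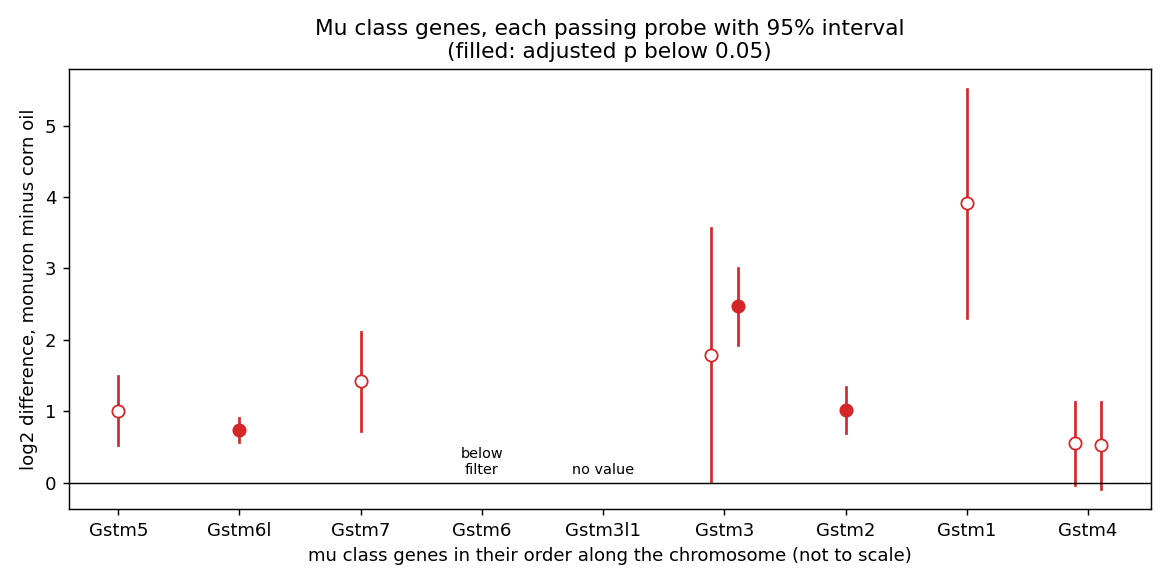
The x axis gives the mu class genes in their order along chromosome 2, not to scale, and the y axis the log2 difference of each passing probe, monuron minus corn oil, with its 95% interval. Filled points have an adjusted p below 0.05, and the Gstm3 points rest on corn oil signals at background, so their size is not exact. All points lie above 0, from 0.52 for a Gstm4 probe to 3.91 for Gstm1, and with spike-in scaling the Gstm4 probes fall to -0.032 and -0.060.

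The alpha class genes, whose products also reduce lipid peroxides, showed no called probe among 7. At an unadjusted p below 0.05 in limma 1 was higher and 0 lower (7206 of 41125 over all probes). Gsta2 (A_43_P13967) stood at 290.0, 209.5 and 216 on monuron replicates 1 to 3 and at 183, 249 and 255 on corn oil replicates 1 to 3. The groups were intermixed, with monuron replicate 1 highest and corn oil replicate 1 lowest. The difference was 1.04-fold with an interval of 0.758 to 1.43. Gsta4, a transferase of 4-hydroxynonenal, a product of lipid peroxidation, was 1.09-fold with an interval of 0.797 to 1.48 on its brightest probe and 1.14-fold (0.681 to 1.9) on the other. Its levels on the brightest probe were 135, 95.4 and 99.6 with monuron and 84.0, 116 and 103 with corn oil.

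The probes of Gsta3, for which RefSeq lists the synonym Yc2, did not read alike. Probe A_64_P035291 stood at 3.37, 4.63 and 4.64 on the monuron arrays and 2.14, 2.59 and 1.53 on the corn oil arrays, without overlap. Its log2 difference was 1.03 ± 0.23 and it was not called (adjusted p = 0.111, range over the alternatives 0.0498 to 0.275). Probe A_64_P004231, listed for the same RefSeq transcript, had levels of 87.5, 83.6 and 63.5 with monuron and 53.3, 82.8 and 70.0 with corn oil, which overlap (log2 0.20 ± 0.20). Probe A_44_P491831, listed for another transcript of the gene, gave 0.31 ± 0.13. The log2 ratio of A_64_P035291 to A_64_P004231 on the same array was -4.22 ± 0.463 with monuron and -5.05 ± 0.44 with corn oil (SD, n = 3 each), and these overlapped (two-sided exact permutation p = 0.2, smallest possible 0.1).

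Gstt1, the theta class enzyme that acts on small halogenated compounds, stood at 9.31, 10.6 and 8.65 with monuron and 6.30, 10.3 and 8.50 with corn oil. The difference was 1.16-fold (interval 0.833 to 1.61). Gstk1, the mitochondrial and peroxisomal kappa enzyme, stood at 9.21, 9.38 and 10.3 with monuron and 8.10, 8.71 and 9.32 with corn oil, 1.11-fold higher (interval 0.957 to 1.28). Mgst1, the microsomal enzyme, stood at 14.5, 17.2 and 15.1 with monuron and 12.1, 14.3 and 13.8 with corn oil. Its groups did not overlap, yet by a margin far smaller than for Gstp1, and its difference was 1.16-fold (interval 0.973 to 1.38). None of these was called, with limma adjusted p-values of 0.616, 0.429 and 0.352. The intervals exclude a difference as large as that of Gstp1, and they leave room for changes of 1.28-fold to 1.61-fold.

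A ratio of 2 probes on the same array does not depend on how arrays are scaled. The log2 ratio of Gstp1 to Gstk1 was 4.28 ± 0.0709 with monuron and 2.70 ± 0.122 with corn oil. For Gstp1 to Mgst1 it was 3.58 ± 0.125 with monuron and 2.07 ± 0.0383 with corn oil, and for Gstp1 to Gsta2 -0.34 ± 0.371 with monuron and -2.01 ± 0.149 with corn oil (SD, n = 3 each). The groups did not overlap in these ratios. The log2 ratio of Gstp1 to Gstm2 differed between the groups by 0.71, and that of Gstp1 to Gstm1 by -2.19. Of 11 such ratios, chosen with the results known, 9 did not overlap. The others were the Gsta3 pair and Gstp1 to Gstm3, which has no meaning as a size because the Gstm3 probe was above background on 1 of 3 corn oil arrays, though it was counted in the adjustment. Each of the 9 reached the smallest two-sided exact permutation p that 3 against 3 arrays allow, 0.1, which is 0.122 after Benjamini-Hochberg adjustment over the 11, so the test could not pass 0.05.

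Within the corn oil group the members shared a low array. Corn oil replicate 1 was the lowest corn oil array for 15 of the 17 member probes and the highest for 0, whereas over all tested probes it was the lowest for 28.3%. With monuron, replicate 1 was the highest array for 6 of 7 alpha class probes and the lowest for 3 of 4 mu class probes and 3 of 3 pi class probes. The ratio of the highest to the lowest array had a median of 1.25 within the monuron group and 1.38 within the corn oil group over the 17 probes, against 1.17 and 1.18 over all probes. The member medians were thus above those of all probes in both groups, and Gstm1 (5.41) and A_44_P391068 of Gstm3 (6.40) varied most within corn oil.

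Liver transcripts differed between arrays as well. The mean log2 level of 17 hepatocyte markers measured of 18 was 0.97, -0.024 and -0.34 on monuron replicates 1 to 3 and -1.05, -0.96 and 0.32 on corn oil replicates 1 to 3. Their summed level was 109 to 153 on the monuron arrays and 115 to 134 on the corn oil arrays, and Cps1 was not well above background on any array. Most of that sum was Serpinc1, at 82.3 to 99.3 with monuron and 96.9 to 110 with corn oil. The brightest probes of Serpinc1 and Apoc3 had log2 differences of -0.20 and -0.18, while 23 of the 27 passing marker probes were above 0. Alb, the albumin gene, stood on its brightest probe at 15.3, 4.35 and 4.11 with monuron and 1.33, 1.09 and 6.34 with corn oil. Monuron replicate 1, highest in hepatocyte markers, was also highest in Gsta2 and Gsta4. Within corn oil, replicate 3 was highest in these markers and in Gsta2 on A_43_P13967. Gsta2 on A_44_P109608 and both Gsta4 probes were instead highest on corn oil replicate 2. With the hepatocyte score as a covariate the log2 difference of the brightest Gsta2 probe was -0.15 in place of 0.058, and the part of liver transcripts in these values was not tested. Without the pair of arrays highest in these markers (monuron replicate 1 and corn oil replicate 3) limma called 0 of 41106 probes, and the log2 difference of Gstp1 was 1.80, that of Gstm2 1.11 and that of Gstm1 4.41. Erythroid markers moved with the groups: the mean log2 level of 7 measured of 10 was 4.43 to 4.65 with monuron and 3.13 to 3.45 with corn oil. Of their 14 probes 8 were called higher, where 0.832% of all probes tested were. Tubule injury markers had 4 of 14 probes called higher, of Havcr1, Spp1 and Gdf15. Havcr1 (kidney injury molecule) stood at 0.269, 0.424 and 0.357 with monuron and 0.0302, 0.0217 and 0.0256 with corn oil. Its probe passed the filter through the monuron arrays alone, so its call adds no support to that count. Of the 14 injury marker probes 13 were above 0. Those of Clu (log2 0.0072 and 0.13), Vim (0.079) and Vcam1 (-0.25) were not called. The part of either list in the member values was not tested.

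**Figure D4:**
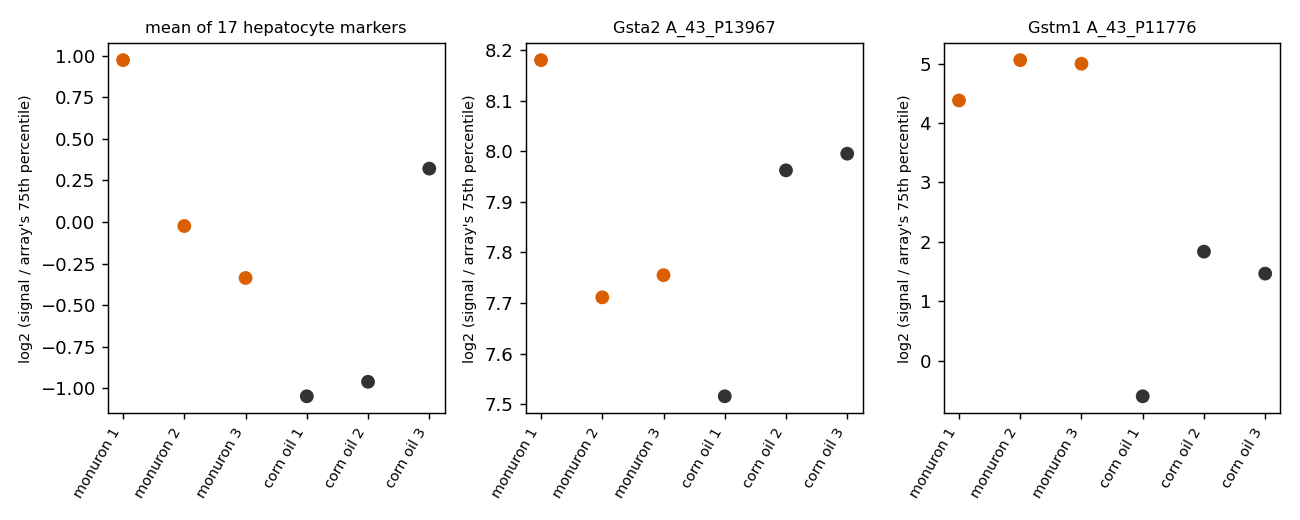
Log2 levels on each of the 6 arrays, monuron in orange and corn oil in black, for the mean of 17 hepatocyte markers (left), Gsta2 (centre) and Gstm1 (right), with a separate y scale in each panel. Monuron replicate 1 is highest in the left and centre panels and is the lowest monuron array for Gstm1.

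In the list of other glutathione transferases, 0 of 20 passing probes of 15 genes were called in either direction by limma. Gstm6l, called above, is counted apart from this list, while Ltc4s, Ptges and Alox5ap are counted in it. At an unadjusted p below 0.05, 4 were higher and 3 lower (7206 of 41125 over all probes). The median log2 difference was -0.0070. Beside the mu genes above, Gstt2 of the theta class had 1.44-fold (1.17 to 1.78, adjusted p = 0.122) and 1.28-fold differences on its probes. Mgst2, near background on the corn oil arrays, had a log2 difference of 0.80 ± 0.25 (adjusted p = 0.2). It passed the filter through the monuron arrays alone, so it adds no support to the count of higher probes. The 3 lower probes were of Gsto1 (log2 -0.24 ± 0.09) and the microsomal Mgst3 (-0.17 ± 0.06 and -0.20 ± 0.08). Another Mgst3 probe gave -0.10 ± 0.08. Gsta5, an alpha class gene on chromosome 8 like Gsta2, had a log2 difference of -0.0022 ± 0.18 and, like Gsta2, its highest monuron level on replicate 1 and its lowest corn oil level on replicate 1.

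Glutathione synthesis and recycling genes had 0 called probes of 26 in either direction. At an unadjusted p below 0.05 in limma, 8 were higher and 3 lower (7206 of 41125 over all probes). The 8 include the Gclm probe and a Chac1 probe that passed the filter through the monuron arrays alone. These probes add no support to that count. The median log2 difference was 0.29. Gclm, the modifier subunit of glutamate-cysteine ligase, stood at 0.0242, 0.0798 and 0.0477 with monuron and did not rise above background with corn oil. It was at least 1.92-fold higher and not called (adjusted p = 0.11). Txnrd1, thioredoxin reductase, had log2 differences of 0.36 to 0.46 on 4 probes, the smallest adjusted p being 0.0844. The probes of Chac1, which degrades glutathione, did not read alike. One gave 0.082 ± 0.095 (adjusted p = 0.697), another was above background on 3 monuron arrays and 1 of 3 corn oil arrays and was not called (adjusted p = 0.0675), and a further probe was below background on all arrays. Oplah, which recycles 5-oxoproline to glutamate, stood at 12.2, 13.8 and 14.8 with monuron and 17.2, 18.6 and 20.0 with corn oil, a log2 difference of -0.45 ± 0.10 (adjusted p = 0.114).

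Genes that export glutathione conjugates or turn them into mercapturic acids had 2 called probes of 40, both higher. Over all probes tested 1.22% were called, 0.832% higher. At an unadjusted p below 0.05 in limma, 9 were higher and 6 lower (7206 of 41125 over all probes). The median log2 difference was -0.00033. Abcc2, an apical efflux pump for glutathione and glucuronide conjugates, stood at 16.4, 18.4 and 18.6 with monuron and 3.92, 3.78 and 4.20 with corn oil. It was 4.49-fold higher (3.90 to 5.16, limma adjusted p = 0.00492) and kept its call without each array in turn. Without the liver-rich pair it was not called (adjusted p = 0.093), but that fit called 0 of 41106 probes. Over all alternatives its log2 difference was 1.59 to 2.26. Slc17a1, a phosphate and organic anion transporter, is no enzyme of mercapturate formation. It stood at 5.16, 4.67 and 5.02 with monuron and 2.77, 2.89 and 3.32 with corn oil, 1.66-fold higher (1.42 to 1.94, adjusted p = 0.0342), and of the 6 fits without a single array only that without corn oil replicate 3 kept the call (adjusted p 0.0487, against 0.0946 to 0.129 in the other 5).

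**Figure D5:**
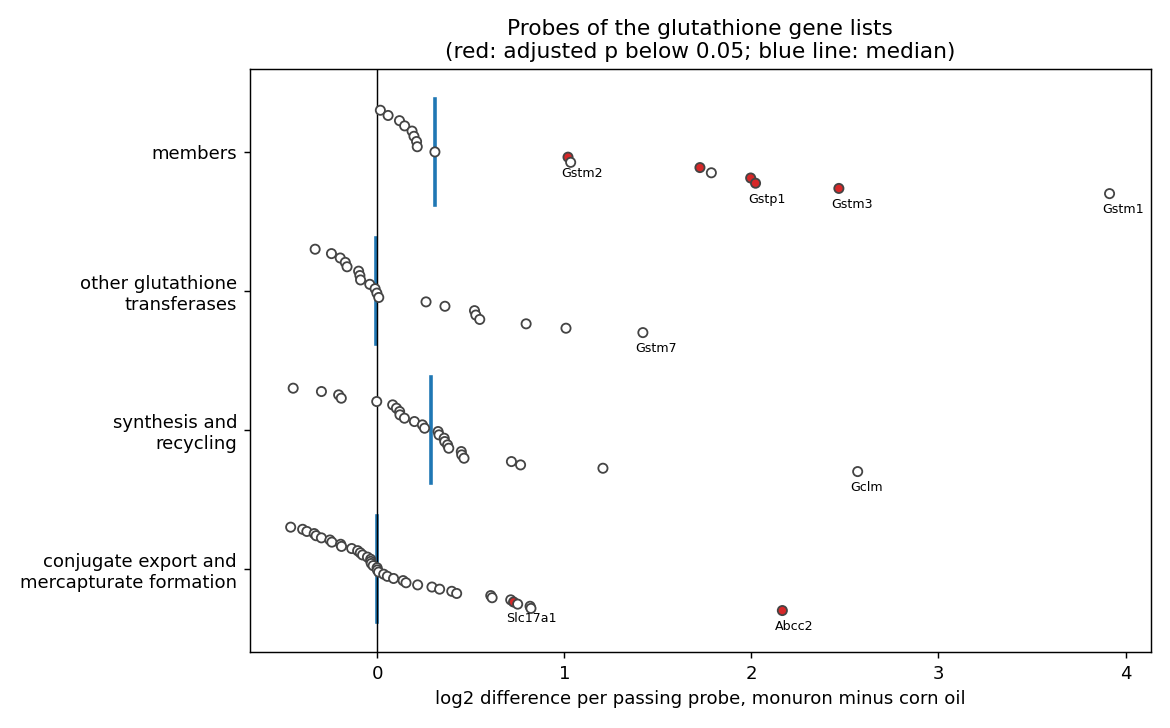
Each point is the log2 difference, monuron minus corn oil, of 1 passing probe in 4 gene lists, red where the adjusted p is below 0.05, with the list's median as a blue line. Called probes appear among the members (Gstp1, Gstm2, Gstm3) and in the export list (Abcc2, Slc17a1), and the list medians lie between -0.0070 and 0.31.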

How the data were processed

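The scanner files deposited by the authors give linear spot intensity. Agilent Feature Extraction 10.7 is named in the submitters' processing notes. A value table, also deposited by the authors, is a linear ratio: it equals the processed signal over 1 constant per array within 0.0497% for values of at least 0.1, with column medians of 0.11 to 0.111 with monuron and 0.108 to 0.112 with corn oil, after rounding. Computed here were levels as log2 of processed signal over the array's 75th percentile, without 1439 control spots and spots marked as outliers. No probe was saturated. The number of arrays limits the precision. Accessions were matched to RefSeq (GRCr8), which named 28206 probes (45.8%). The array design cites an older build, so coordinates are given for promoter windows only. Each probe was tested with limma 3.58.1 in R 4.3.3 (lmFit, eBayes, two-sided), and the functions were tested on simulated arrays. The labels speak of biological replicates. The members, gene lists and pair ratios were chosen with earlier results of these data known. Named are all members, and of each other glutathione list the genes with a called probe or else the 4 with the smallest p. Genes named after their values were seen include Gstm6l, Gstm4, Gsta5, Gsto1, Mgst3, Gclc, Alb, F2, Havcr1, Spp1, Gdf15, Clu, Vim and Vcam1. Same-numbered replicates had deviations correlated at -0.0812, 0.102 and -0.161, so they were not paired. Alternatives were 22 other settings of scaling, background, filter, probe choice, variance model, replicate block, liver transcripts and left-out arrays.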

Additional observations from a re-analysis of the deposited data

How the results depend on the processing

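Of 17 member probes 5 were called higher, among them the Gstm3 probe that passed the filter through the monuron arrays alone. Counted by gene, with the brightest probe or the mean of a gene's probes, 2 were (Gstp1 and Gstm2). With the replicate block, which spends residual degrees of freedom and left 0 calls among all 41125 probes, 0 were called, and likewise 0 in the list of export and mercapturate genes (2 otherwise). The same 0 and 0 held without the pair of arrays highest in hepatocyte markers. Without single arrays the count was 0 to 5 for members (0 without monuron replicate 3, where 0.0779% of all probes were called higher, and 3 without monuron replicate 1 or 2, where 0.146% were, against 0.832%), 1 to 2 for export genes and 0 to 1 for synthesis genes, where 1 was called without corn oil replicate 1. Export genes had 1 call without a detection filter and 1 with the hepatocyte covariate. The list of other transferases gained 1 higher call with normexp and 1 with trend and robust eBayes.

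Scaling on spike-in probes moved the median of all probes to -0.56, against 0.019, and without scaling it was 0.11. The spike-in scale called 31308 of all 41125 probes lower and 343 higher. With it 2 member probes were called lower, and the calls were 1 higher and 10 lower among the other transferases, 2 higher and 12 lower for synthesis, and 1 higher and 26 lower for export. Relative to that scale the log2 differences turned to -0.52 and -0.56 for Gsta2, -0.38 and -0.27 for Gsta3, -0.46 and -0.39 for Gsta4, -0.37 for Gstt1, -0.43 for Gstk1, -0.37 for Mgst1, -0.053 and -0.22 for Gstt2, -0.22, -0.22, -0.13 and -0.12 for Txnrd1 and -0.50 for Chac1, while all pi and mu members stayed above 0. Near 0, signs also turned with normexp (-0.036 and -0.064 for Gsta2, -0.018 for Chac1), with quantile normalization (-0.0024 for Gsta2), with the hepatocyte covariate (-0.15 and -0.20 for Gsta2, -0.036 and -0.13 for Gsta4) and without the liver-rich pair (-0.0058 and -0.084 for Gsta2, -0.020 for Gsta4). Without single arrays Gsta2 ran between -0.097 and 0.14 and between -0.16 and 0.12, and Gsta4 between -0.039 and 0.23 and between -0.071 and 0.37. Where no cause is named, the cause was not tested. Corn oil signal at background limits the Gstm3 values.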

Other observations

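Likeness of profile was described over the 6 arrays, with Pearson's r between each member's brightest probe and 12054 other genes with a symbol. Both groups enter it, so a shared group difference alone gives a high value, and no test was made. The genes most like Gstp1 were Kif18b and Cdca2, which act in mitosis, and Ywhag, a 14-3-3 protein (r = 0.999, 0.998 and 0.998). Kif18b and Cdca2 were also called higher with monuron (log2 1.08 ± 0.08 and 1.74 ± 0.08, limma adjusted p = 0.00953 and 0.00557), and Ywhag was not (0.13 ± 0.06, adjusted p = 0.297). The genes most like Gstm1 were Slc34a2, a phosphate transporter, and Htr3a, a serotonin receptor subunit (r = 0.996 and 0.993), with log2 differences of 2.23 ± 0.41 and 1.06 ± 0.18 that were not called (adjusted p = 0.0796 and 0.0659).

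The profile of Gsta2 was most like those of Nr0b1 and Trim13 (r = 0.987 and 0.985), followed by Gsta5 (r = 0.982). Among the 3 genes most like Mgst1 was F2, the prothrombin gene (r = 0.989), whose level was 3.66, 8.80 and 4.19 with monuron and 1.17, 3.91 and 2.86 with corn oil. F2 is on the hepatocyte list but did not follow its mean. F2 was highest on replicate 2 in both groups, and the mean of the list on monuron replicate 1 and corn oil replicate 3. Gclc, the catalytic subunit of glutamate-cysteine ligase, had its lowest level on replicate 1 in both groups: A_64_P056846 stood at 44.1, 109 and 90.8 with monuron and 30.6, 65.6 and 49.1 with corn oil. The groups overlapped, and the log2 difference was 0.72 ± 0.43 (adjusted p = 0.439). Gstm1 shared that order, with replicate 1 lowest in both groups.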
